A study of Schistocerca gregaria with 20 samples.

Results

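The transcripts described here pulsed in the hind legs of embryos of the desert locust *Schistocerca gregaria* at day 12. They were chosen from the deposited RPKM, the reads mapped to a transcript divided by its length in kilobases and by the depth of the library, as those over 10 RPKM in legs of day 12 and over 4 times the leg level of both day 11 and day 13. The rule took 208 of 12988 transcripts, or 1.60% of all. The leg levels of days 11, 12 and 13 chose the members, so these are given below as a description and were not tested.

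Pleuropodia, gland-forming appendages on the first segment of the abdomen, were compared with hind legs (the third thoracic pair) of embryos of the same age. Eggs were kept at 30 °C, and 10 stages were sampled, at days 4, 5, 6, 7, 8, 8-9, 10, 11, 12 and 13. There are 20 libraries, 1 for each tissue at each stage, and each pooled the mRNA of many appendages. No stage has a replicate library. In such bulk samples, fewer cells of a type and less RNA per cell cannot be told apart.

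Insects grow a new cuticle beneath the old one at every moult. The epidermis first detaches from the old cuticle, a step called apolysis, then releases enzymes that digest it and secretes the layers of the next one, and many genes of this program are active only briefly. Locust embryos moult inside the egg as well, and the leg epidermis goes through a first embryonic moult around day 8-9 and a second just before day 12. Gland cells of the pleuropodia turn to secretion over the same days, and their products are linked to digestion of the serosal cuticle around the embryo.

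Of the members, 5 carry a protein name in the study's main tables. The others are given by identifier only, and any names for them in its supplement were not used. Their identifiers begin with SgreTa for 195 and SgreTb for 13, and 0 of them matched the RefSeq gene table used here. Whether members with parallel profiles share reads as near copies was not tested. Transcript lengths recovered from the values had a median of 1386 bases for the members and 1744 bases for all transcripts.

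Depth lay between 15186075 and 36027338 mapped reads in pleuropodia and between 27890837 and 36884141 in legs. The tissue labels were checked on dac, a leg patterning gene, which lay between 9.98 and 99.4 RPKM in legs and at or below 3.31 RPKM in pleuropodia. The abdominal Hox gene abd-A reached at most 0.272 RPKM in any leg library, and had 17.2 and 9.14 RPKM in pleuropodia of days 4 and 5. From day 6 on it was between 0.273 and 2.215 RPKM in pleuropodia, so it hardly separates the tissues at the late stages. The Hox gene Ubx was higher in pleuropodia at day 4, with 176.5 RPKM against 59.0 in legs. It was lower in pleuropodia at day 12, with 2.12 RPKM against 24.0 in legs. The day 8-9 pair was sequenced at another centre than the rest, in both tissues.

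At day 12 every member was over 10 RPKM in legs by the rule, a level that 39.05% of all transcripts exceeded there. The levels of the members ranged from 10.0 to 6196 RPKM, with a median of 65.6 and quartiles of 28.9 and 169. Of the 208, 77 exceeded 100 RPKM and 8 exceeded 1000 RPKM. Together they took 8.33% of the reads of that library, against 0.286% in legs of day 11 and 0.670% in legs of day 13.

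Over the 10 stages in order, the member median in legs was 0.0796, 0.0932, 0.102, 0.223, 1.59, 0.720, 1.07, 1.21, 65.6 and 4.57 RPKM. The median of all transcripts was 9.08, 6.34 and 4.58 RPKM in legs of days 11, 12 and 13. The median was near zero in the young leg, low through day 11 and still above its day 11 value at day 13. The leg level of day 13 was above that of day 11 in 153 of 208.

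**Figure D1:**
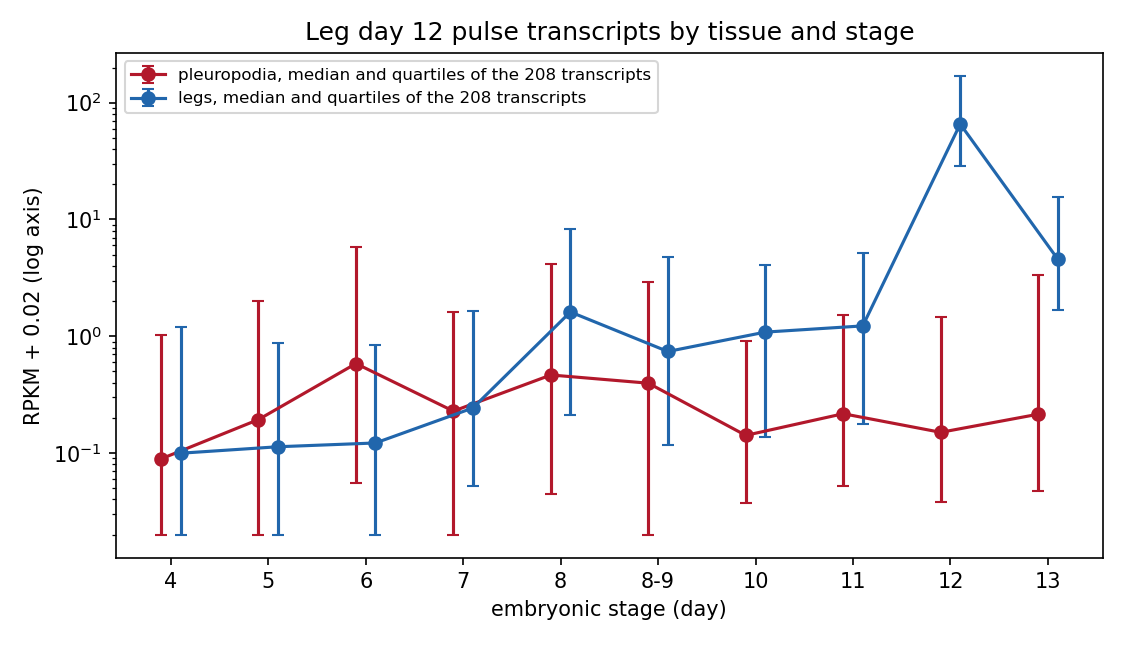
Median RPKM of the 208 transcripts at each embryonic stage (x axis, days) in pleuropodia and in legs, on a log axis after adding 0.02, with bars from the lower to the upper quartile over transcripts. The leg median stands at 65.6 RPKM at day 12, while the pleuropodia median is highest at day 6 with 0.564 RPKM.

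Day 12 exceeded the higher of its neighbours by a median of 8.96-fold over the members, and at most by 2123-fold. The ratio was over 20 for 53 members and over 100 for 14. Just inside the limit of 4 stood SgreTa0005663 with 0.402, 10.0 and 2.49 RPKM in legs of days 11, 12 and 13, SgreTa0014110 with 33.5, 136 and 21.4, and SgreTa0006098 with 0, 69.8 and 17.1. Just outside it stood SgreTa0000437 with 3.41, 14.8 and 3.76 RPKM, SgreTb0030874 with 23.8, 131 and 33.7, and SgreTa0002665 with 0.554, 14.4 and 3.79. In 5 of these 6 the higher neighbour was day 13, and in SgreTa0014110 it was day 11.

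The strongest member was SgreTa0014473. In legs it had 0, 0.0120, 1.10, 10.4, 37.8, 20.3, 2.01, 2.57, 6196 and 110 RPKM over the 10 stages. Its day 12 value rests on 465905 reads, and its exact 95% Poisson interval, which covers counting error only, is 6178 to 6213 RPKM. SgreTa0004450, the next, had 0.998, 3334 and 590 RPKM in legs of days 11, 12 and 13, so that it fell off more slowly. Both also had a small earlier maximum in legs at day 8, at 37.8 and 9.91 RPKM.

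The other members over 1000 RPKM at day 12 differed in what came before. SgreTa0009850 had 13.1, 1943 and 24.8 RPKM in legs of days 11, 12 and 13. SgreTa0001869 had 40.8, 1904 and 55.8 RPKM at the same days, and SgreTa0009261 had 134, 1632 and 16.6 RPKM. SgreTa0000885 had 0.783, 1861 and 204 RPKM, and had already been at 91.3 RPKM in legs of day 4. SgreTa0007334 had 2.59, 1420 and 118 RPKM, and SgreTa0007063 had 33.0, 1002 and 27.8 RPKM. SgreTa0008582, with 19.2, 980 and 24.1 RPKM, and SgreTa0014816, with 125, 838 and 11.8 RPKM, complete the 10 strongest. None of the 10 reached its day 12 level in any other leg library, although SgreTa0014816 was between 43.3 and 125 RPKM in every younger one.

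The 5 members named next had the largest ratio of legs of day 12 to the higher neighbour after 0.5 RPKM was added to each, which lowers the ratio of weak members. Without that addition the largest ratio, 2123, was that of SgreTa0011944, named after its values were seen, with 0.0269, 57.2 and 0 RPKM in legs of days 11, 12 and 13. SgreTa0011556 had 0.122, 212 and 0.146 RPKM in legs of days 11, 12 and 13, and at most 0.0406 RPKM in any younger leg library. SgreTa0001615 had 0.0474, 211 and 0.770 RPKM, and SgreTa0001560 had 0.0995, 102 and 0.178 RPKM. SgreTa0012035 had 0.833, 593 and 3.84 RPKM. SgreTa0012186 had 61.6 RPKM at day 12 from 2080 reads, against 0 reads at day 11 and 1 read at day 13. It was listed at 0 in every pleuropodia library, and at day 12 the leg level was at least 706-fold higher than the 0.0872 RPKM that 3 reads in the pleuropodia library would give.

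**Figure D2:**
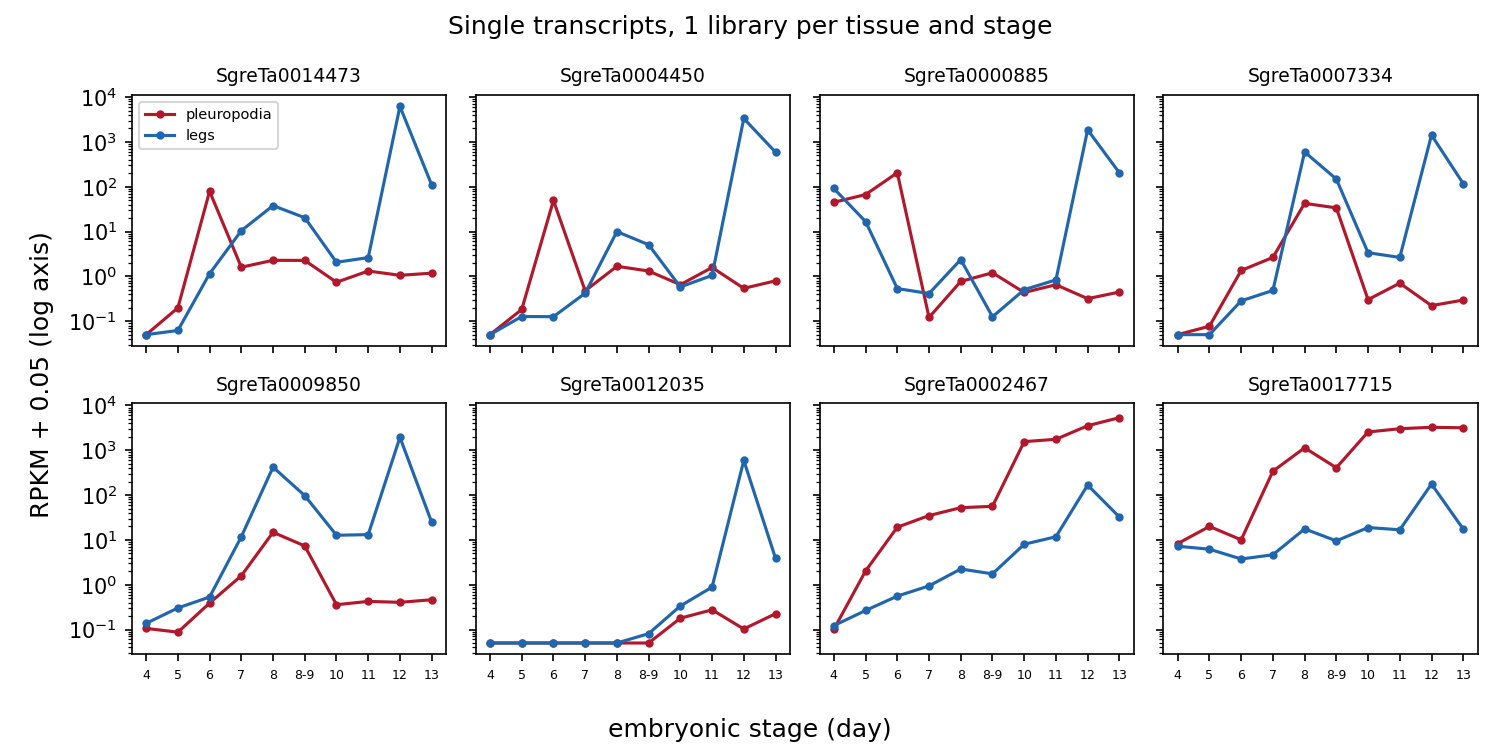
RPKM of 8 transcripts at each embryonic stage (x axis, days) in pleuropodia and in legs, on a log axis after adding 0.05, with 1 library per point. SgreTa0012035 has its 1 peak in legs of day 12, SgreTa0007334 and SgreTa0009850 have leg maxima at days 8 and 12, SgreTa0014473 and SgreTa0004450 add a maximum in pleuropodia of day 6, and SgreTa0002467 and SgreTa0017715 are higher in late pleuropodia than in any leg library.

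Some members had an earlier leg peak at day 8, near the time of the first embryonic moult. At least 25% of the day 12 level was reached in an earlier leg library (days 4 to 10) by 35 of 208 members (16.8%), while 90.1% of all transcripts over 10 RPKM in legs of day 12 did so. Because the rule asks for a low level at day 11, that contrast is partly fixed by the choice of members. Of the 35, 27 had their earlier maximum at day 8 and 4 at day 8-9. Without the day 8 library 22 members reached 25%.

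A rule set after the values were seen asked for over 10 RPKM in legs of day 8 and over 4 times the leg levels of days 7 and 10. It took 24 of the 208 members (11.5%), against 0.354% of all transcripts. In 23 of the 24, the day 8-9 level lay between those of days 8 and 10. With day 8-9 in place of day 8, 12 members met the rule, against 0.524% of all transcripts. Both contrasts are partly fixed by the choice of members, which asked for a low leg level at day 11, next to day 10. The median in legs of day 10 was 1.07 RPKM over the members and 8.70 RPKM over all transcripts. The 24 ranged from 10.0 to 596 RPKM in legs of day 8, with a median of 19.5, and from 15.2 to 1943 RPKM in legs of day 12, with a median of 104.

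SgreTa0007334 had the highest day 8 level of these. In legs it had 0.434, 596, 148, 3.32 and 2.59 RPKM at days 7, 8, 8-9, 10 and 11, before the 1420 RPKM of day 12. SgreTa0007418 reached 504 RPKM in legs of day 8 and 490 RPKM in legs of day 12, with 7.07 and 12.5 RPKM at days 10 and 11. SgreTa0009850 reached 420 RPKM at day 8 and SgreTa0013208 reached 358 RPKM, with 368 RPKM at day 12. In 4 of the 5 members with the highest earlier level relative to day 12 the earlier leg peak was the larger one. These were SgreTa0007418 and, besides it, SgreTa0006652 with 61.7 RPKM in legs of day 8 and 17.6 in legs of day 12, SgreTa0016727 with 40.7 and 30.7 RPKM, and SgreTa0013707 with 91.1 and 82.4 RPKM.

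Legs of days 7-9 (days 7, 8 and 8-9) were compared with legs of days 4-6 to ask whether the members had risen before the pulse, using limma on log2(TMM-scaled RPKM + 0.5) with 3 libraries per period as replicates. The days differ in age, so the p-values measure the spread between days. Of the 77 members that passed a filter of 1 RPKM in 3 libraries, 1 was called higher and 0 lower at an adjusted p under 0.05 (limma, Benjamini-Hochberg over 9996 transcripts), against 0.04% of all transcripts called higher and 0% called lower. At an unadjusted p under 0.05 the members passing numbered 44, or 57.1% of those tested, against 26.4% of all transcripts. Of the 77, 18 passed the filter only through legs of days 7-9, so a difference was required of them, and the counts over the tested members are a description. The median log2 difference was 1.17 over the 77 members and -0.08 over all transcripts tested. The 1 call was among those 18. It was SgreTa0005981, with 7.14, 21.8 and 11.5 RPKM in legs of days 7, 8 and 8-9 and 0 RPKM in legs of days 4, 5 and 6. Its later level was at least 133-fold higher than the 0.102 RPKM that 3 reads per library would give (limma adjusted p = 0.032, 0.011 to 0.22 over the alternatives).

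That count rested on single libraries. Without the legs of day 6 it was 15 higher and 4 lower, while 3.67% and 0.749% of all transcripts were called. Without the legs of day 7 it was 8 higher and 4 lower, while 2.01% and 1.54% of all were called. Without any other single library it was 0 and 0.

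The same rule was applied to pleuropodia of day 12. Of the 208, 0 met it there, and 3 of all transcripts did (0.0231%), so a count of 0 is near the general share. At 2-fold in place of 4-fold, 2 members passed (0.962%), against 0.293% of all transcripts. Over the 10 stages in order, the member median in pleuropodia was 0.0691, 0.174, 0.564, 0.208, 0.446, 0.376, 0.122, 0.197, 0.130 and 0.195 RPKM. It stayed below 1 RPKM throughout and was highest at day 6.

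The difference between the tissues was widest at day 12, the stage that the rule used in legs. There 187 members were over 2-fold lower in pleuropodia than in legs with over 10 RPKM in legs, against 15.3% of all transcripts, and 11 were over 2-fold higher in pleuropodia, against 7.67% of all. Leg day 12 exceeded pleuropodia day 12 by over 100-fold for 133 of 208, with 3 reads as the least level in pleuropodia, and 47 members had 0 reads in pleuropodia of day 12. SgreTa0014473, for example, had 1.01 RPKM in pleuropodia of day 12 (95% interval 0.793 to 1.26, from 77 reads) and 6196 RPKM in legs.

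By their highest pleuropodia level the members fell into 3 classes. In 77 members (37.0%) no pleuropodia library exceeded 1 RPKM, and 11 of these were listed at 0 in all of them. A further 56 members (26.9%) exceeded 1 but never 10 RPKM, and 75 (36.1%) exceeded 10 RPKM at some stage. The 77 that stayed at or below 1 RPKM had a median of 47.9 RPKM in legs of day 12 and of 0.0131 RPKM in pleuropodia of day 12, and they include SgreTa0009261 with 1632 RPKM in legs.

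**Figure D3:**
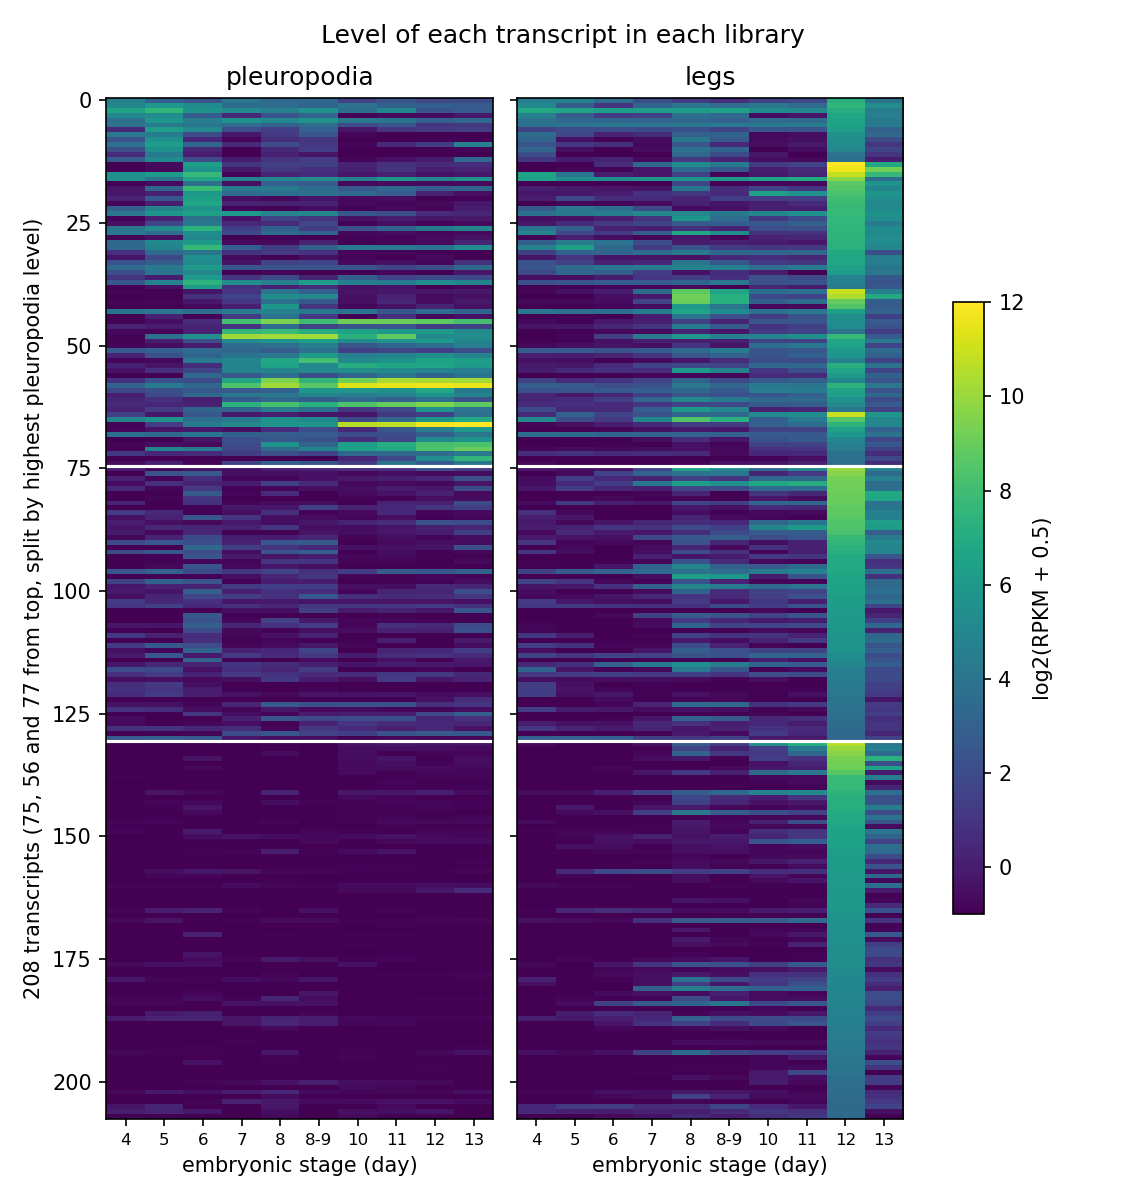
Level of each of the 208 transcripts (rows) in each library (columns, stage in days), pleuropodia on the left and legs on the right, as log2(RPKM + 0.5). White lines split the 75 transcripts over 10 RPKM in some pleuropodia library, ordered by the stage of their maximum, the 56 between 1 and 10, and the 77 at or below 1. The bright column is legs of day 12.

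The stage at which pleuropodia had their highest level was spread widely. It was day 6 for 50 members, day 5 for 27, day 8 and day 13 for 26 each, and day 8-9 for 16. It was day 12 for 15, day 10 and day 11 for 13 each, day 4 for 7 and day 7 for 4. Among the 75 members that exceeded 10 RPKM, 39 had their pleuropodia maximum by day 6, 15 from day 7 through day 8-9, and 21 from day 10 on. The 39 early ones had a median of 38.8 RPKM in pleuropodia of day 6 and 1.01 RPKM in those of day 7. The 21 late ones had a median of 48.4 RPKM in pleuropodia of day 12, beside 59.5 RPKM in legs.

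**Figure D4:**
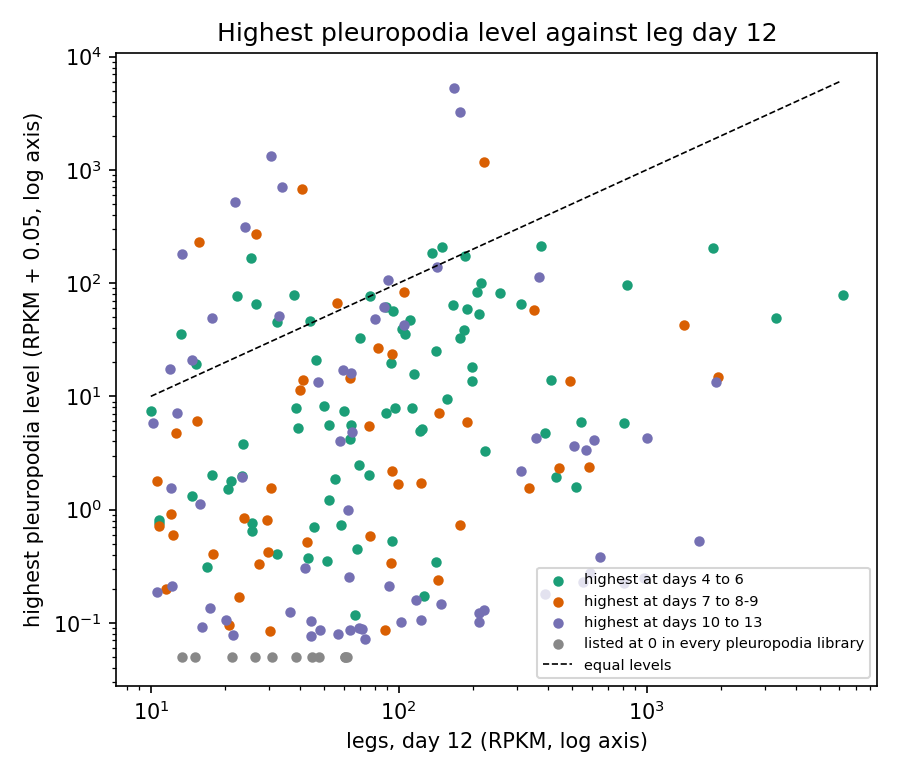
Highest pleuropodia level (y axis, RPKM + 0.05) against leg day 12 level (x axis, RPKM) of the 208 transcripts, both on log axes, coloured by the pleuropodia stage of the highest level. Points above the dashed line, 27 of 208, are higher at some pleuropodia stage than in legs of day 12.

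At day 6, a stage that the rule did not use, 35 members were over 2-fold higher in pleuropodia than in legs and 1 was lower (16.8% and 0.481% of the members), against 5.78% and 4.84% of all transcripts. By the pulse rule applied to pleuropodia of days 5, 6 and 7, 16 members passed, which is 7.69% of the members and 8.79% of the 182 transcripts that passed in all (1.40% of all transcripts). In those 16 the median was 0.622, 65.0 and 0.823 RPKM in pleuropodia of days 5, 6 and 7, and 1.67, 198 and 35.7 RPKM in legs of days 11, 12 and 13.

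Outside day 12, the same tissue comparison gave members in both directions. Higher and lower in pleuropodia than in legs were 2 and 2 members at day 4 (0.316% and 0.47% of all transcripts), and 19 and 3 at day 5 (2.28% and 0.893%). At day 7 they were 19 and 8 (8.41% and 7.98%), at day 8 they were 20 and 33 (7.56% and 12.2%), and at day 8-9 they were 20 and 25 (8.28% and 11.4%). At day 10 they were 18 and 17 (8.53% and 18.3%), at day 11 they were 20 and 23 (7.96% and 24%), and at day 13 they were 27 and 63 (10.3% and 12.1%). The leg levels of days 11, 12 and 13 chose the members, so the counts at those stages are a description. At the other stages, higher members outnumbered lower ones most clearly at days 5 and 6, and lower members outnumbered higher ones most clearly at day 8. All transcripts leaned the same way at day 8, with 12.2% lower and 7.56% higher, so the lean of the members there was near the general one. At day 10 the members were nearly even, while 18.3% of all transcripts were lower and 8.53% higher.

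The pulse in pleuropodia of day 6 included both of the strongest leg members. SgreTa0014473 had 0.148, 79.0 and 1.55 RPKM in pleuropodia of days 5, 6 and 7, while legs of day 6 had 1.10 RPKM. SgreTa0004450 had 0.132, 49.4 and 0.426 RPKM in pleuropodia of the same days, while legs of day 6 had 0.0759 RPKM. SgreTa0000885, with 44.9, 66.8, 205 and 0.0712 RPKM in pleuropodia of days 4, 5, 6 and 7, climbed before it fell and so missed the rule. The highest of the 16 at day 6, named after its values were seen, was SgreTa0007656 with 9.04, 213 and 19.0 RPKM in pleuropodia of days 5, 6 and 7, against 374 RPKM in legs of day 12.

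Other pulses of the series that held members were smaller. The rule took 5 members among 21 transcripts in pleuropodia of day 5, which is 2.40% of the members, against 0.162% of all transcripts, and 23.8% of that pulse. It took 4 among 49 in pleuropodia of day 8 (1.92% of the members, against 0.377% of all, and 8.16% of the pulse). In legs of day 8 it took 5 among 12 (2.40% of the members, against 0.0924% of all, and 41.7% of the pulse). It took 0 members at every other stage to which it could be applied, and outside day 12 the largest leg pulse was that of day 8-9 with 48 transcripts. Of the 24 members with a leg peak at day 8 over days 7 and 10, 5 had one in pleuropodia of day 8 by the same rule, which 0.231% of all transcripts met. SgreTa0007334 was one of them, with 2.59, 42.5 and 0.253 RPKM in pleuropodia of days 7, 8 and 10, against 596 RPKM in legs of day 8. The peak of this transcript at day 8 was thus seen in both appendages.

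**Figure D5:**
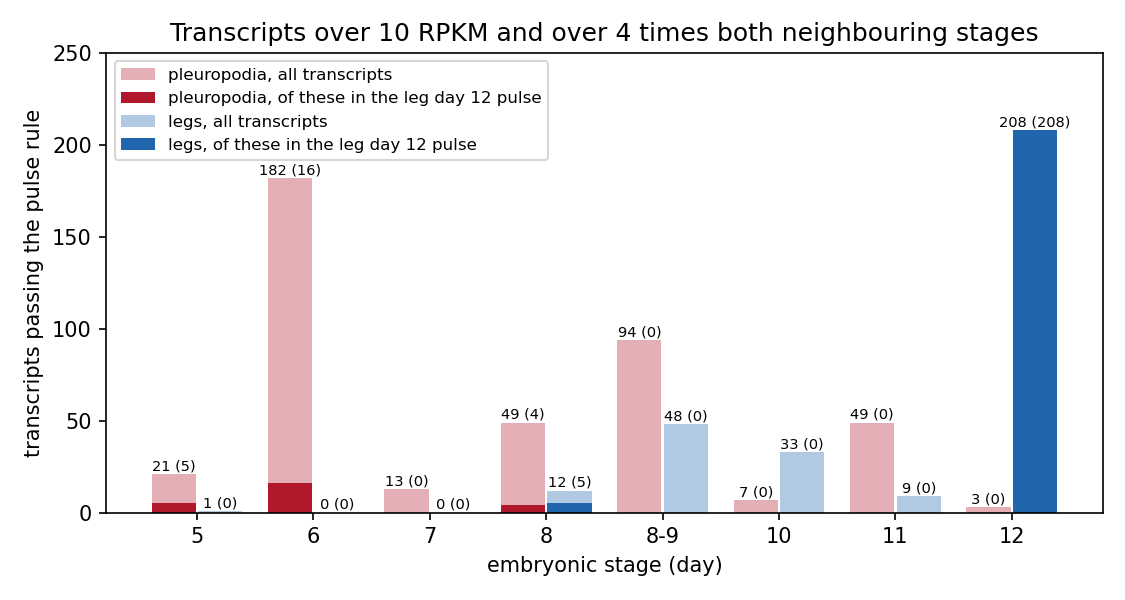
Number of transcripts over 10 RPKM and over 4 times both neighbouring stages (y axis) at each stage (x axis, days), in pleuropodia and in legs. The dark part of a bar, and the number in brackets, is those among the 208 of the leg day 12 pulse, 16 of 182 in pleuropodia of day 6.

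Pleuropodia were compared with legs at days 4-6 and at days 7-9, to ask whether the tissues already differed in these transcripts before the pulse. At days 4-6, 52 members passed the filter, and 0 were called higher and 0 lower (limma, adjusted over 9709 transcripts), against 0.0515% and 0.0721% of all transcripts. Of the 52, 8 had an unadjusted p under 0.05, or 15.4%, against 5.89% of all transcripts. The median log2 difference was 1.10 over these members and -0.07 over all transcripts. With day as a block the fit called 0 members too, and leaving out 1 library in turn called at most 1, higher without the pleuropodia of day 4, where 0.592% of all transcripts were called higher.

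At days 7-9 the tissues differed in both directions. Of 97 members tested, 25 were called higher and 25 lower in pleuropodia than in legs (limma, adjusted over 10845 transcripts), against 25.1% and 21.7% of all transcripts, so the share of calls among the members, 25.8% each way, was close to that of all transcripts. Of these 50 calls, 26 were of members that passed the filter through 1 tissue alone. The median log2 difference was -0.37 over the members and -0.05 over all. Libraries of the same day deviated together in this comparison, and with day as a block 29 members were higher and 36 lower (29.9% and 37.1%). Over all transcripts the calls then rose both ways, to 3563 higher in place of 2722 and 3695 lower in place of 2351 (32.9% and 34.1%). Without TMM scaling the median of all transcripts moved to -0.32, with 25 members higher and 30 lower, and 2069 of all transcripts higher and 3433 lower in place of 2722 and 2351. The count of higher members was 15, 15 and 14 without the pleuropodia of day 7, 8 or 8-9, where 17%, 15.1% and 18.6% of all transcripts were called higher. That of lower members was 7 without the legs of day 8 and 7 without those of day 8-9, where 13.3% and 16% of all were called lower.

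The 3 largest differences among members called higher in pleuropodia at days 7-9 are given first. The I-type lysozyme SgreTb0006243, of a family that breaks down bacterial cell walls, had 291, 681 and 247 RPKM in pleuropodia of days 7, 8 and 8-9, and 0.555, 2.28 and 0.664 RPKM in legs. The 2 tissues did not overlap, and the log2 difference was 8.10 ± 0.51 (SE, limma adjusted p = 4.9e-05). SgreTa0008241 had 189 ± 46.8 RPKM in pleuropodia and 0.411 ± 0.285 in legs (SD, n = 3), a log2 difference of 7.82 ± 0.28 (limma adjusted p = 7.1e-06). SgreTa0005097 had 138 ± 123 RPKM in pleuropodia and 0.521 ± 0.472 in legs (SD, n = 3), with a log2 difference of 6.81 ± 0.79 (limma adjusted p = 0.00064). Both SgreTa0008241 and SgreTa0005097 passed the filter through pleuropodia alone. A difference was thus required of them, and their fits are a description.

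Members called lower in pleuropodia were led by SgreTa0007038. It had 0.539, 2.33 and 1.04 RPKM in pleuropodia of days 7, 8 and 8-9 and 18.9, 76.9 and 46.7 RPKM in legs (log2 difference -4.34 ± 0.59, limma adjusted p = 0.0012). SgreTa0005981 had 0, 0.0342 and 0 RPKM in pleuropodia, 1 read in all, and 7.14, 21.8 and 11.5 RPKM in legs (log2 difference on the RPKM + 0.5 scale -4.34 ± 0.39, limma adjusted p = 2e-04). SgreTa0007063 had 0.204, 0.489 and 0.694 RPKM in pleuropodia and 2.54, 97.1 and 33.4 RPKM in legs (log2 difference -4.23 ± 1.15, limma adjusted p = 0.022, 0.011 to 0.069 over the alternatives). SgreTa0014473 was lower in pleuropodia as well, with a log2 difference of -2.76 ± 0.45 (limma adjusted p = 0.0026), at the days that followed its pleuropodia pulse. Among these, SgreTa0005981 and SgreTa0007063 passed the filter through legs alone. A difference was thus required of both, and their fits are a description.

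Within the pleuropodia, days 7-9 were compared with days 4-6 and days 10-12 with days 7-9. At days 7-9, 25 of 83 members tested were called higher and 10 lower than at days 4-6 (limma, adjusted over 10546 transcripts), against 18.7% and 11.6% of all transcripts. The median log2 difference was 0.36 over these members and -0.04 over all. Without TMM scaling the split was 25 higher and 14 lower for the members, and 1580 higher and 2190 lower in place of 1967 and 1220 for all transcripts, whose median moved to -0.31. Of the 35 calls, 20 were of members that passed the filter through 1 period alone. The balance of the calls turned when a later library was left out. Without the pleuropodia of day 7 the calls were 6 higher and 8 lower (7.83% and 5.01% of all transcripts), without those of day 8 they were 4 and 5 (3.55% and 0.943%), and without those of day 8-9 they were 4 and 8 (6.75% and 3.13%). Without those of day 4 they were 16 higher and 6 lower (12.5% and 4.35% of all), and without those of day 5 they were 15 and 2 (9.72% and 2%).

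Members that fell in pleuropodia were led by SgreTa0000885. It had 0.0712, 0.720 and 1.15 RPKM in pleuropodia of days 7, 8 and 8-9, and 44.9, 66.8 and 205 RPKM in those of days 4, 5 and 6 (log2 difference -6.03 ± 0.67, limma adjusted p = 0.0016). SgreTa0002070 had 0.0485, 0.0186 and 0.198 RPKM at the later days and 7.28, 27.6 and 53.2 RPKM at the earlier ones (log2 difference -4.99 ± 0.68, limma adjusted p = 0.0037). SgreTa0007544 moved in parallel with it, with a log2 difference of -4.91 ± 0.69 (limma adjusted p = 0.0041). All 3 were high in young pleuropodia, near zero in the gland, and at 1861, 211 and 165 RPKM in legs of day 12. The largest rises were those of SgreTb0006243 (log2 difference 8.84 ± 0.52, limma adjusted p = 0.00015), SgreTa0008241 (8.05 ± 0.33, limma adjusted p = 8.9e-05) and SgreTb0019973. The last of these had 1151, 1157 and 1171 RPKM in pleuropodia of days 7, 8 and 8-9 and 0.0366, 13.6 and 47.0 RPKM in those of days 4, 5 and 6 (7.55 ± 1.45, limma adjusted p = 0.012, 0.0018 to 0.071 over the alternatives), and had 36.6 RPKM in those of day 12. The filter was passed through days 7-9 alone by SgreTb0006243 and SgreTa0008241, and through days 4-6 alone by SgreTa0002070 and SgreTa0007544. A difference was thus required of these transcripts, and their fits are a description.

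In pleuropodia of days 10-12 against those of days 7-9, 10 of 71 members tested were called higher and 9 lower at the later days (limma, adjusted over 10597 transcripts), against 13.8% and 13.1% of all transcripts. The median log2 difference was 0.28 over these members and 0.05 over all. Without TMM scaling the split was 9 higher and 17 lower for the members, and 712 higher and 3120 lower in place of 1458 and 1393 for all transcripts, whose median moved to -0.43. Of the 19 calls, 5 were of members that passed the filter through 1 period alone. Without the pleuropodia of day 7 the calls were 3 higher and 2 lower (4.78% and 3.55% of all transcripts), without those of day 8 they were 11 and 2 (9.05% and 6.61%), and without those of day 8-9 they were 8 and 4 (12.6% and 10.4%). Without those of day 10 they were 8 higher and 4 lower (6.76% and 8.49% of all), without those of day 11 they were 4 and 7 (4.93% and 7.13%), and without those of day 12 they were 5 and 5 (6.04% and 8.54%).

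SgreTa0002467 rose the most. This neutral endopeptidase, a member of a family of membrane-bound metallopeptidases, had 1558, 1758 and 3530 RPKM in pleuropodia of days 10, 11 and 12 and 34.9, 52.2 and 56.1 RPKM in those of days 7, 8 and 8-9 (log2 difference 6.01 ± 0.44, limma adjusted p = 0.0032). SgreTa0017685 had 82.5, 115 and 314 RPKM at the later days and 2.87, 10.8 and 28.5 RPKM at the earlier ones (4.31 ± 0.92, limma adjusted p = 0.020, 0.011 to 0.056 over the alternatives). SgreTa0000923 had 78.9, 135 and 299 RPKM and 3.54, 49.4 and 8.45 RPKM (4.11 ± 1.03, limma adjusted p = 0.031, 0.019 to 0.093 over the alternatives).

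Lower at days 10-12 of the pleuropodia was SgreTa0007334, one of the members with a leg peak at day 8. It had 0.253, 0.655 and 0.172 RPKM in pleuropodia of days 10, 11 and 12 and 2.59, 42.5 and 33.7 RPKM in those of days 7, 8 and 8-9 (log2 difference -4.09 ± 1.04, limma adjusted p = 0.032, 0.012 to 0.093 over the alternatives). SgreTa0009740 fell by 3.41 ± 0.50 on the log2 scale (limma adjusted p = 0.0083), and SgreTb0032766 fell by 3.08 ± 0.50 (limma adjusted p = 0.0099). SgreTb0032766 had 5.11, 3.77 and 1.04 RPKM in pleuropodia of days 10, 11 and 12, and 208 RPKM in legs of day 12. Of the transcripts that fell, SgreTa0007334 and SgreTa0009740 passed the filter through days 7-9 alone. A difference was thus required of both, and their fits are a description.

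The 5 members with a protein name were all far higher in late pleuropodia than in the leg pulse. All 5 belong to the 77 transcripts that the study listed as most abundant in secreting pleuropodia, a list drawn from these same libraries. The Snake-like serine protease SgreTa0017715, of a family that acts in proteolytic cascades, had 3024, 3258 and 3173 RPKM in pleuropodia of days 11, 12 and 13 and 16.8, 176 and 17.4 RPKM in legs. The neutral endopeptidase SgreTa0002467 had 1758, 3530 and 5337 RPKM in pleuropodia and 11.7, 167 and 32.3 RPKM in legs of these days.

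The serpin SgreTa0009747 (27-like), of a family of protease inhibitors, had 1326, 1239 and 1169 RPKM in pleuropodia of days 11, 12 and 13 and 7.18, 30.6 and 4.89 RPKM in legs. Gram-negative bacteria binding protein 3, SgreTa0009559, of a family of pattern recognition proteins, had 489, 706 and 424 RPKM in pleuropodia and 6.56, 33.7 and 5.67 RPKM in legs. The I-type lysozyme SgreTb0006243 had 548, 433 and 289 RPKM in pleuropodia and 5.05, 40.7 and 6.08 RPKM in legs. None of the 5 pulsed in pleuropodia at day 12 by the rule.

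Because these 5 are gland transcripts, the levels of the whole gland list in legs are given beside them. Its sum in legs was 3589, 3700, 4341 and 3306 RPKM at days 10, 11, 12 and 13, and 3545, 3653, 3893 and 3240 RPKM without the 5 members, while in pleuropodia of day 12 it was 186000 RPKM. The transcripts other than the 5 are those that did not meet the rule, so their sum says little of gland RNA in legs, and its part in the result was not tested. Among them SgreTa0014009, an angiotensin-converting enzyme named after its values were seen, had 34.4, 127 and 22.6 RPKM in legs of days 11, 12 and 13, and 128 RPKM in legs of day 8-9. The most abundant of the gland list went the other way at day 12. SgreTa0017702 had 29.7, 22.2 and 28.4 RPKM in legs of days 11, 12 and 13, and SgreTa0007897 had 48.4, 31.9 and 37.5 RPKM. The members other than these 5 took 8.22% of the reads of legs of day 12. In pleuropodia of day 12 all members took 2.67% of the reads, and 0.412% without these 5.

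Enzymes that digest cuticle were examined only as far as the study's main tables list them with identifiers. The supplement of the study also covers moulting fluid proteases that were lower in pleuropodia, and these were not examined. The main list of proteases matched to moulting fluid proteins holds 24 transcripts. All were chosen for being higher in secreting pleuropodia than in legs in these libraries, so proteases higher in legs are not in it. Of the 24, 1 was a member, the neutral endopeptidase (4.17%, against 1.6% of all transcripts). The sum of the list in legs was 245, 296, 606 and 202 RPKM at days 10, 11, 12 and 13, or 237, 284, 439 and 170 RPKM without it. The Easter-like serine proteases SgreTa0007424, SgreTa0007425 and SgreTb0037249, named after their values were seen, were 6.36, 6.44 and 4.73 times the higher neighbour in legs of day 12, but at 0.854, 3.97 and 0.127 RPKM they were under the minimum. SgreTb0037249 was already at 0.112 RPKM in legs of day 10. The other Easter-like proteases of the list did not rise as a family. SgreTa0003188, SgreTa0003661, SgreTa0006780, SgreTb0039879, SgreTa0010219 and SgreTb0039024 were at 0.605, 0.620, 0.517, 1.03, 3.63 and 2.26 times the higher neighbour. Of the chitin-degrading enzymes, 2 could be matched, and neither was a member. Sg-cht5-1, a chitinase, had 167, 55.9, 15.4 and 26.7 RPKM in legs of days 10, 11, 12 and 13, highest at day 10, and Sg-nag2, a hexosaminidase, had 12.4, 14.7, 18.3 and 15.9 RPKM, highest at day 12.

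A few members were higher in pleuropodia of day 12 than of days 11 and 13. Of the 29 members over 10 RPKM in pleuropodia of day 12, the largest ratio to both neighbours was that of SgreTa0006652, with 3.07, 48.7 and 14.8 RPKM in pleuropodia of days 11, 12 and 13, beside 0.763, 17.6 and 2.42 RPKM in legs. SgreTa0009130 had 44.3, 107 and 18.5 RPKM in pleuropodia and 19.0, 90.2 and 4.46 RPKM in legs. SgreTa0008828 had 6.95, 13.3 and 4.14 RPKM, SgreTa0017620 had 27.4, 48.4 and 28.3 RPKM, and SgreTa0017739 had 27.5, 42.6 and 27.4 RPKM in pleuropodia. These 5 were taken as the largest such ratios in pleuropodia among the 29, and the rule required the leg peak of every member. That day 12 stood above both neighbouring days in both appendages was therefore set by the choice. In the pleuropodia it did so by less than 4-fold.

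Leg libraries themselves changed between days 11 and 13. In legs of days 11, 12 and 13, dac was at 72.8, 21.3 and 9.98 RPKM, Ubx, a Hox gene, at 99.4, 24.0 and 19.1 RPKM, and Dll, a gene of the distal limb, at 18.2, 2.26 and 1.91 RPKM. The TMM factors that divide the RPKM were 1.25, 0.834 and 0.554 for these libraries. With TMM-scaled values 178 transcripts passed the rule. The part of these shifts in the pulse was not tested.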

How the data were processed

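Total RNA of dissected appendages was enriched for mRNA and sequenced. Per the labels and the study's methods, the authors mapped reads of 50 bases with Bowtie2 (version 2.2.5) to their embryonic transcriptome and removed weakly expressed transcripts. For day 8-9 the labels state that reads of 1 direction were used, the methods that mates were joined. The deposited matrix, although named a count matrix, holds RPKM. The authors' own comparison (fold changes and probabilities) was not used. Reads and lengths were recovered as whole multiples (100.00% of values within 0.05 reads), and intervals cover counting error only.

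RPKM were scaled by TMM (30% and 5% trimmed), transcripts with at least 1 RPKM in 3 libraries were kept, and log2(RPKM + 0.5) was fitted with limma 3.58.1 in R 4.3.3 (trend, Benjamini-Hochberg adjusted p under 0.05). The fold changes understate those of low transcripts. The fit was tested on simulated data. Other steps ran in Python 3.11.15 with scipy 1.17.1, pandas 2.3.3 and numpy 2.4.6, and plots were drawn with matplotlib 3.10.9.

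Members and lists were chosen with earlier results of these data known. Named transcripts are the 10 highest in legs of day 12, the 5 with the largest ratio of legs of day 12 to the higher neighbouring day on RPKM + 0.5, and the 5 highest in pleuropodia. Added to these are the 5 with the largest such pleuropodia ratio at day 12 among members over 10 RPKM there, and the 5 with the highest earlier leg level. The rest are those named in the study's main tables, 3 on each side of the threshold, and the first 3 calls each way in each comparison. The period groups treat libraries of different days as replicates, so p-values cover the spread between them. Pairs of libraries share an age by their labels, and their deviations from the group means correlated between tissues at 0.435, 0.449 and 0.700 for days 7, 8 and 8-9, and at 0.487, -0.0539 and 0.342 for days 4, 5 and 6. Alternatives were other scalings, thresholds, pseudocounts and filters, day as a block, and leaving out each library. Counts of the day 8 leg peak, the pleuropodia of day 6 and the values without single libraries or the gland list were added after seeing the data.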

Additional observations from a re-analysis of the deposited data

How the results depend on the processing

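The group held between 147 and 246 transcripts under the 6 alternatives to the rule (147 at 6-fold, 246 at 3-fold). No transcript named from the limma comparisons changed direction under an alternative in which it was tested, but the balance of calls did. In pleuropodia of days 7-9 against days 4-6 it was 25 higher and 10 lower, but lower calls outnumbered higher ones without day 7, 8 or 8-9. In days 10-12 against days 7-9 it was 10 and 9 (13.8% and 13.1% of all transcripts). Without TMM scaling it was 9 and 17 (6.82% and 29.9% of all), and without day 11 it was 4 and 7 (4.93% and 7.13%). With no filter it was 14 and 18, or 7.18% and 9.23% of the members, against 10.6% and 11.5% of all. In pleuropodia of day 12, 2 members passed at 2-fold. An earlier leg level of 50% in place of 25% was reached by 21 members, and by 22 at 25% without the legs of day 8, while the leg peak at day 8 was met by 12 with day 8-9 in place of day 8. With TMM scaling 0 members were over 2-fold lower in pleuropodia than in legs at day 6. For legs of days 7-9 against days 4-6, 0 members were called higher with a pseudocount of 1 or with no filter. With day as a block (the pairing by age), 29 members were higher and 36 lower at days 7-9, against 32.9% and 34.1% of all transcripts. At days 4-6 the block called 0 members either way. At days 7-9 it changed the call of none of the 6 transcripts named from that comparison. Leaving out 1 library in turn, the calls were 0 to 15 higher and 0 to 4 lower for legs of days 7-9 against days 4-6 (0% to 3.67% and 0% to 1.54% of all transcripts). For the tissues at days 4-6 they were 0 to 1 and 0 to 0 (0% to 0.592% and 0% to 0.935% of all). For the tissues at days 7-9 they were 14 to 25 and 7 to 27 (15.1% to 23.1% and 11.6% to 21.6% of all). They were 4 to 30 and 2 to 11 for pleuropodia of days 7-9 against days 4-6 (3.55% to 24.2% and 0.943% to 16.4% of all). For days 10-12 against days 7-9 they were 3 to 11 and 2 to 7 (4.78% to 12.6% and 3.55% to 10.4% of all). The cause was not tested for any of these changes. For the transcripts named from the limma comparisons, 144 alternative values stayed past the threshold and 19 did not. A transcript that passed the filter through 1 group alone was not tested when a library of that group was left out. Such fits are in neither count, and not in the ranges of p given over the alternatives. The pulse rests on 1 leg library of day 12. Depth limits the tissue ratios at day 12, where 47 members had 0 reads and 38 had 1 to 3 reads in pleuropodia.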
